A study of Mus musculus with 8 samples.

Results

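A set of 10 genes of the integrated stress response and the unfolded protein response were followed in mouse embryonic stem cells that had lost an enhancer. They were chosen by name, with no threshold on any value: Atf4, Ddit3, Atf3, Trib3, Chac1, Asns, Hspa5, Xbp1, Herpud1 and Dnajb9. They are 10 of the 17728 gene identifiers used. The mean of each of the 10 over the 8 samples was at least 1 FPKM (fragments scaled to transcript length and to the number of mapped fragments), so all 10 were among the 11269 genes tested. The cells were E14TG2a, a stem cell line of strain 129/Ola, kept without feeder cells on gelatin in serum, leukaemia inhibitory factor, a GSK3 inhibitor and a MEK inhibitor, which all groups shared. Wild-type cells (WT) were set against 3 knockouts made with CRISPR/Cas9, named E1-KO, E2-KO and E3-KO after the enhancer removed. The 4 groups had 2 samples each, which the labels call biological duplicates, so p-values measure the spread between such pairs. The labels give neither the positions of the enhancers nor how many clones each knockout group stands for. Edited cells with an intact enhancer were not analysed here, so the knockout cannot be told apart from differences in clone or culture, and the 3 comparisons with WT share the same WT samples.

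Both responses slow protein synthesis and switch on repair genes. In the integrated stress response, kinases that sense amino acid shortage, double-stranded RNA, haem shortage or misfolded proteins phosphorylate the initiation factor eIF2. This lowers general translation but favours translation of the mRNA of Atf4, a transcription factor that then raises genes for amino acid supply and, under lasting stress, genes linked to cell death. In the unfolded protein response, sensors in the membrane of the endoplasmic reticulum (ER) act through Atf4, through ATF6 and through splicing of the Xbp1 mRNA, and raise ER chaperones and the degradation of misfolded proteins. Stem cells divide fast and depend on a steady supply of amino acids and of folding capacity. Levels of mRNA show neither the translation of Atf4 nor the splicing of Xbp1, which were not measured here.

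The promoters of 6 members are shown, those that passed the test in at least 1 knockout: Hspa5 and Ddit3 as higher, and Asns, Chac1, Herpud1 and Xbp1 as lower. Each sequence is the 250 bases before the RefSeq start site in GRCm38.p6, 5′ to 3′ on the strand of the gene. Hspa5 lies at chr2:34771840-34772089 (plus strand), Herpud1 at chr8:94386179-94386428 (plus), Asns at chr6:7693210-7693459 (minus), Chac1 at chr2:119350992-119351241 (plus), Xbp1 at chr11:5520391-5520640 (plus) and Ddit3 at chr10:127290543-127290792 (plus). The authors' values were made on another build, mm9, and these positions are used only to place the sequences. Capitals mark the motif matches described after them, and Xbp1 and Ddit3 hold none.
Hspa5: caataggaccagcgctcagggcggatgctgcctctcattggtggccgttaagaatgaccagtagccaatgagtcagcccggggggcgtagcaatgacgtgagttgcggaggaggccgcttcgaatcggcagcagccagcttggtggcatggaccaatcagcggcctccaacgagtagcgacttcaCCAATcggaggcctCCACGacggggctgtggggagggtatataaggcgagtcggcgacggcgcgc
Herpud1: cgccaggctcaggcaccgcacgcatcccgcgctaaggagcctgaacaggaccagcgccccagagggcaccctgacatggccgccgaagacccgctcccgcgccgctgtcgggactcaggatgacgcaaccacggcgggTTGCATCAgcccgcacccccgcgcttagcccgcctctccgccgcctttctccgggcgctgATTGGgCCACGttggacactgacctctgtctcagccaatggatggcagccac
Asns: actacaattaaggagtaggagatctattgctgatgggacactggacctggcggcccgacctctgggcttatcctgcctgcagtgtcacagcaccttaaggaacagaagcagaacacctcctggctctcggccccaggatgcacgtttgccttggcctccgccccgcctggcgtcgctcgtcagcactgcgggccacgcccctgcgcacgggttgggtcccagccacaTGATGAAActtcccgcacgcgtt
Chac1: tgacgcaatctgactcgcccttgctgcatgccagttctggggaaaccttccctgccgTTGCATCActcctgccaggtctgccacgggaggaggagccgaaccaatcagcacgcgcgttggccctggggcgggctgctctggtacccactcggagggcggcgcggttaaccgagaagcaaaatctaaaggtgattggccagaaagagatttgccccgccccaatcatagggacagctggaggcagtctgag
Xbp1: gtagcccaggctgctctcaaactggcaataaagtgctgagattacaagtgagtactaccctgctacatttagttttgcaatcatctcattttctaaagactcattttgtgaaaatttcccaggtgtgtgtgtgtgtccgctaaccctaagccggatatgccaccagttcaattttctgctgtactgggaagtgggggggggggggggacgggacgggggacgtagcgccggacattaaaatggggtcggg
Ddit3: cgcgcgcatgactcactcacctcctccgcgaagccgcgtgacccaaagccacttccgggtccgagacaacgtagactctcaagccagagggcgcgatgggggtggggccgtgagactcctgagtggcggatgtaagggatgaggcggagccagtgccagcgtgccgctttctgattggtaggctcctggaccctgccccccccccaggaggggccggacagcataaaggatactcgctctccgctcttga

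RefSeq promoters were found for all 10 members, and 5 motifs were searched on both strands of each window. The ER stress element (ERSE, CCAAT and CCACG with 9 bases between) is the binding site of ATF6 with NF-Y. It stood in Hspa5, from 65 to 47 bases before the start, and in 0.113% of the 32817 windows of that length in the table. The related ERSE-II (ATTGG and CCACG with 1 base between) stood in Herpud1, from 52 to 42 bases before the start, and in 0.0305% of all windows. The composite C/EBP-ATF element bound by ATF4 (CARE) was searched as TGATGNAAT. That form, with T as its last letter, was found in none of the 10, against 0.817% of all windows. Its 8-letter core TGATGNAA, which lies inside that motif and was added after the sequences had been seen, stood in Asns (23 to 16 bases before the start), Chac1 (193 to 186), Herpud1 (112 to 105) and Atf3 (110 to 103). The core was found in 3.45% of all windows. The members that hold the core lack only the last T of the searched form, so they are not shown to lack a CARE. The XBP1 element (UPRE, TGACGTGG) was found in no member, against 0.564% of all windows. These are matches of letters only, and a motif outside the window or with other letters would be missed.

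The series as a whole set the frame for these genes. Sox2 was lower in every knockout, with log2 fold changes of -1.16, -0.34 and -0.50 (adjusted p = 0.000168, 0.0314 and 0.0049 by limma-trend). The 6 pluripotency markers summed to between 1343 and 1803 FPKM in the 8 samples, and each had a mean of at least 1 FPKM in every group. Of 6 fibroblast markers none reached a group mean of 1 FPKM. The 5 trophectoderm markers summed to 26.95 and 42.47 FPKM in E3-KO against 18.49 to 19.07 in WT, 16.97 to 22.28 in E1-KO and 14.79 to 14.86 in E2-KO. The 4 measured primitive endoderm markers summed to 2.441 and 4.689 FPKM in E3-KO, against at most 1.646 elsewhere. The 3 measured neuroectoderm markers summed to 5.538 to 6.453 FPKM in WT and 8.726 to 12.02 in the knockouts, and the 4 mesoderm markers to 4.79 to 8.607 over all samples. A group mean of at least 1 FPKM was reached by 3 of the trophectoderm markers and at most 1 of the primitive endoderm markers. Of the neuroectoderm and mesoderm markers, 1 or 2 reached it in each group. The part of any such cells in the knockout values was not tested. In bulk RNA fewer cells of a type and less RNA per cell cannot be told apart. All fold changes are on log2(FPKM + 1), which understates changes of low genes, and are given with the standard error (SE). The call is a Benjamini-Hochberg adjusted p under 0.05 by limma-trend over all tested genes, and a gene is said to have risen or fallen only where it passed.

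Between the genes, the levels (FPKM, scaled by length) differed widely. In WT the order of the means was Asns (564.3), Atf4 (252.8), Hspa5 (87.20), Xbp1 (33.56), Herpud1 (16.08), Trib3 (15.76), Dnajb9 (10.32), Ddit3 (9.842), Chac1 (8.655) and Atf3 (2.013). Herpud1 and Trib3 overlapped in this order, as did Dnajb9 and Ddit3, and all other neighbours were apart in both samples. Dnajb9, Ddit3, Chac1 and Atf3 stayed under 15 FPKM in all 8 samples.

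**Figure D1:**
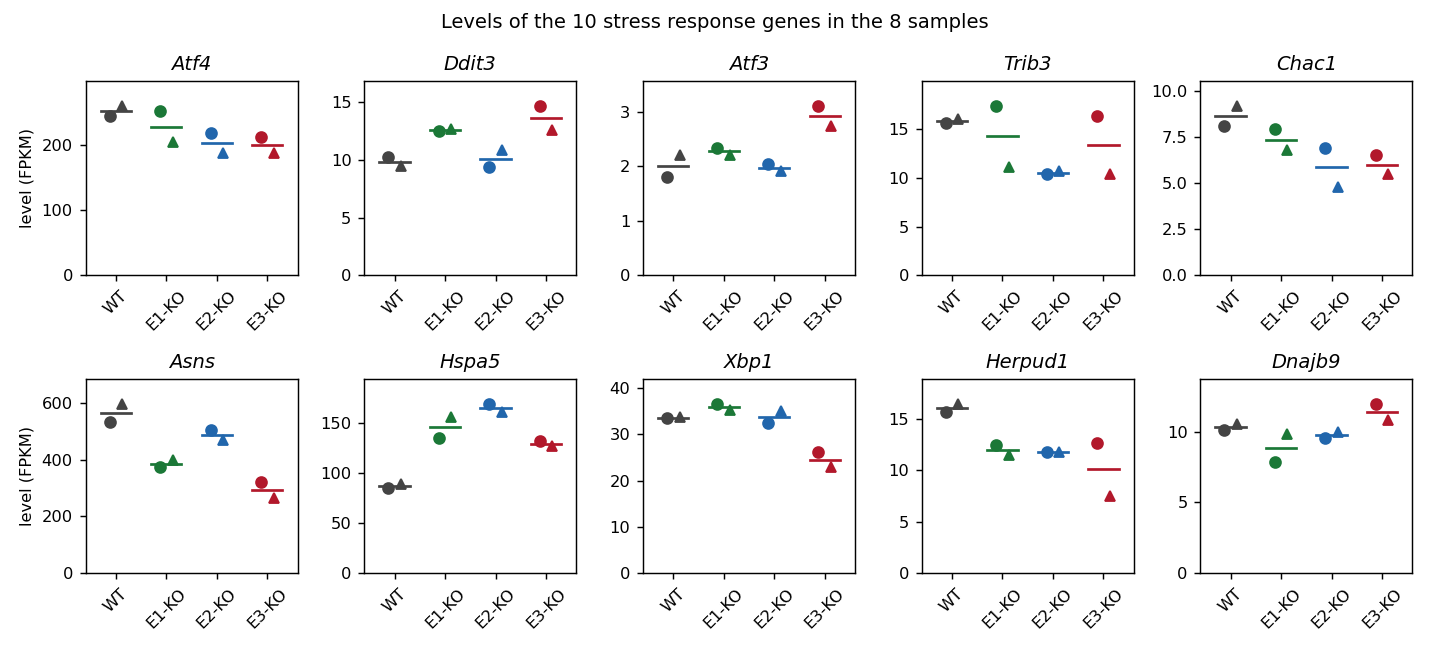
Levels in FPKM of the 10 genes, 1 panel each with its own axis from 0; circles are replicate 1, triangles replicate 2, bars the mean of the 2 samples of a group. Hspa5 is above WT in all 6 knockout samples, Asns below WT in all 6, and Xbp1 is low only in the E3-KO panel positions (22.93 and 26.09 FPKM).

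Atf4, the transcription factor at the centre of the integrated stress response, was measured at 245.5 and 260.0 FPKM in WT. The E1-KO samples had 252.2 and 205.6, those of E2-KO 218.8 and 188.4 and those of E3-KO 212.9 and 187.6. E1-KO overlapped with WT, and the other 4 knockout samples lay below both WT samples. None of the differences passed the test. The log2 fold changes were -0.15 (SE 0.132), -0.31 and -0.34, with adjusted p 0.401, 0.0937 and 0.0653 by limma-trend and 95% intervals of -0.449 to 0.15, -0.614 to -0.015 and -0.637 to -0.038. Without 1 of the E1-KO samples the E1-KO change was -0.296 or -0.003. With quantile normalization the E2-KO change passed (-0.48, adjusted p 0.014). In E3-KO the call passed in 4 of 17 alternative settings (quantile normalization, the 4 samples of the pair alone, and without either E2-KO sample, adjusted p 0.0235 to 0.0482).

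Ddit3 encodes CHOP, a factor induced by Atf4 that promotes cell death under lasting ER stress. Its level was 10.26 and 9.424 FPKM in WT. The knockouts had 12.48 and 12.70 (E1-KO), 9.353 and 10.82 (E2-KO) and 14.62 and 12.56 (E3-KO). The E1-KO and E3-KO samples lay above WT, and E2-KO overlapped with it. Ddit3 rose in E3-KO, where the mean was 1.38 times that of WT (log2 fold change 0.43, SE 0.124, limma-trend adjusted p = 0.021). In E1-KO the change of 0.33 had an adjusted p of 0.0646, and in E2-KO it was 0.03 (0.866). The E1-KO change passed in 5 of 17 alternative settings (the pair alone, both other scalings and without either E3-KO sample, adjusted p 0.0147 to 0.0495). The E3-KO call was lost without E3-KO replicate 1 (0.324, adjusted p 0.0955) and without either WT sample (0.481 and 0.37, adjusted p 0.0596 and 0.131), and quantile normalization gave 0.645. A second annotated Ddit3 gene overlaps 6.13% of its exon bases on the same strand. Gm4189 and Mars overlap 4.73% on the opposite strand, and the labels do not say whether reads were counted by strand.

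Atf3, an early stress factor of the same family, was the lowest of the 10. Its level was 1.813 and 2.214 FPKM in WT. The E1-KO samples had 2.345 and 2.210, those of E2-KO 2.037 and 1.910 and those of E3-KO 3.099 and 2.740. Only the E3-KO samples lay outside the WT range in full. That difference of 0.38 (SE 0.144) had an adjusted p of 0.0571 and so was not called. It passed in 3 of 16 alternative settings, with quantile normalization, median-ratio scaling and limma without a trend (0.0186, 0.0184 and 0.028).

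Trib3, a pseudokinase that Atf4 and CHOP induce and that feeds back on them, was measured at 15.57 and 15.96 FPKM in WT. The replicates were far apart in E1-KO (17.27 and 11.12) and E3-KO (16.26 and 10.34), where they spanned the WT values. In E2-KO they were close (10.32 and 10.64) and both below WT. No difference was called: the log2 fold changes were -0.17, -0.55 and -0.26 (SE 0.223 each; adjusted p 0.571, 0.0849 and 0.369 by limma-trend). The E2-KO difference passed in 3 of 17 alternative settings, with the pair alone (adjusted p 0.011) and without either E3-KO sample (0.0447 and 0.0443).

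Chac1, which degrades glutathione and is a target of Atf4, was measured at 8.123 and 9.188 FPKM in WT. The knockouts had 7.939 and 6.836 (E1-KO), 6.952 and 4.803 (E2-KO) and 6.527 and 5.507 (E3-KO). All 6 knockout samples lay below both WT samples. Chac1 fell in E2-KO to 0.679 of the WT mean (log2 fold change -0.51, SE 0.172, limma-trend adjusted p = 0.047). This call held in 8 of 17 alternative settings. It was lost without E2-KO replicate 2 (-0.278), without either WT sample (-0.585 and -0.425), without either E1-KO sample (-0.505 in both), with the pair alone, with quantile or median-ratio scaling and with every gene above 0 (adjusted p 0.0629 to 0.24). In E3-KO the change of -0.46 had an adjusted p of 0.0546, and in E1-KO -0.20 had 0.377. The E3-KO change passed in 4 of 17 settings (the replicate block, the pair alone and without either E2-KO sample, adjusted p 0.0266 to 0.0497), and with quantile normalization it was -0.23.

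Asns makes asparagine and is a classical target of Atf4. It was the most abundant of the 10 genes, at 532.5 and 596.1 FPKM in WT. The E1-KO samples had 374.4 and 397.8, those of E2-KO 504.5 and 471.0 and those of E3-KO 321.7 and 263.9. All knockout samples lay below WT, and the 3 knockouts did not overlap with each other, with E2-KO highest and E3-KO lowest. Asns fell in E1-KO to 0.684 of the WT mean (log2 fold change -0.54, SE 0.128, limma-trend adjusted p = 0.0105). In E3-KO it fell to 0.519 of the WT mean (-0.95, SE 0.128, adjusted p = 0.000643). In E2-KO the change was -0.21 (adjusted p 0.231), and it passed with quantile normalization (-0.428, adjusted p 0.0141). The E1-KO call was lost without E1-KO replicate 1 (-0.501, adjusted p 0.0846) and without WT replicate 2 (-0.463, adjusted p 0.097).

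Asns lies on chromosome 6, most of whose genes were lower in E3-KO: 375 of 536 tested genes were called, 347 of them as lower. Their median log2 fold change was -0.62 in E3-KO, against -0.13 for genes elsewhere. For E1-KO and E2-KO the median of chromosome 6 was -0.05 and -0.07. In E3-KO 24.8% of the genes of chromosome 6 had a lower log2 fold change than Asns, and in E1-KO 17%. With the genes of chromosome 6 centred on their median in each sample, the change of Asns in E3-KO was -0.33 (limma-trend adjusted p 0.0521). The differences of E3-KO from the other knockouts were then 0.17 against E1-KO and -0.19 against E2-KO (adjusted p 0.344 and 0.318). The fall of Asns in E3-KO and that of its chromosome cannot be told apart here. The fall of Asns in E1-KO stood beside a median near 0 for its chromosome.

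**Figure D2:**
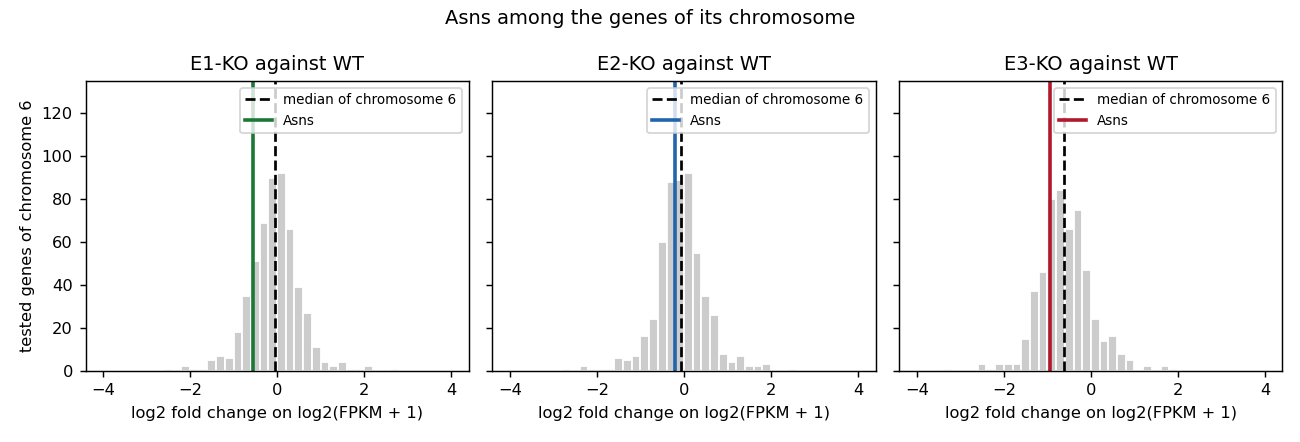
Histograms of the log2 fold change against WT of the 536 tested genes of chromosome 6 in E1-KO, E2-KO and E3-KO, in bins of 0.2; the dashed line is the median, the coloured line Asns. In E3-KO the whole distribution is shifted to a median of -0.62 and Asns (-0.95) lies within it.

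Hspa5 encodes BiP, the main Hsp70 chaperone of the ER, which holds the stress sensors inactive when few proteins are misfolded. It was measured at 85.47 and 88.94 FPKM in WT. The knockouts had 135.2 and 156.8 (E1-KO), 169.4 and 161.0 (E2-KO) and 132.5 and 127.2 (E3-KO). All 6 knockout samples lay above both WT samples. Hspa5 rose in every knockout, to 1.67 (E1-KO), 1.89 (E2-KO) and 1.49 (E3-KO) times the WT mean. The log2 fold changes were 0.73, 0.91 and 0.57 (SE 0.102 each; adjusted p 0.000997, 0.000443 and 0.00243 by limma-trend). Each of these calls held in all 17 alternative settings, in which the change lay between 0.54 and 0.995. By size of change Hspa5 ranked 1633, 855 and 3234 among the 11269 tested genes, so many genes changed more.

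Xbp1, whose spliced mRNA encodes a factor for ER chaperones and degradation, was measured at 33.47 and 33.65 FPKM in WT. The E1-KO samples had 36.52 and 35.14, those of E2-KO 32.49 and 35.07 and those of E3-KO 26.09 and 22.93. Xbp1 fell in E3-KO to 0.73 of the WT mean (log2 fold change -0.44, SE 0.101, limma-trend adjusted p = 0.00752). The changes in E1-KO (0.09, 95% interval -0.137 to 0.32) and E2-KO (0.01, -0.22 to 0.237) were not called. The fall in E3-KO was lost without WT replicate 2 (-0.437, adjusted p 0.0537) and held in the other 16 settings, but median-ratio scaling shrank it to -0.274 (adjusted p 0.0481) and quantile normalization to -0.302 (0.0413).

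Herpud1, an ER membrane protein that takes part in degrading misfolded proteins, was measured at 15.69 and 16.47 FPKM in WT. The knockouts had 12.52 and 11.54 (E1-KO), 11.80 and 11.80 (E2-KO) and 12.69 and 7.507 (E3-KO). All 6 knockout samples lay below both WT samples. The log2 fold changes were -0.39, -0.42 and -0.66 (SE 0.192 each), and Herpud1 passed as lower only in E3-KO (limma-trend adjusted p 0.138, 0.122 and 0.0211). The 2 E3-KO samples differed most, and leaving out replicate 2 gave -0.319 (adjusted p 0.075), which ended the call, while leaving out replicate 1 gave -1.005. It was also lost without either WT sample (-0.695 and -0.629, adjusted p 0.0727 and 0.103), with quantile normalization, with median-ratio scaling and with every gene above 0. In E1-KO and E2-KO the difference passed without either E3-KO sample (adjusted p 0.0142 to 0.0176) and with the pair alone (0.0127 and 0.0263).

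Dnajb9 (ERdj4), a co-chaperone of BiP and a target of XBP1, was measured at 10.08 and 10.55 FPKM in WT. The E1-KO samples had 7.819 and 9.859, those of E2-KO 9.523 and 9.997 and those of E3-KO 11.94 and 10.81. The samples lay below WT in E1-KO and E2-KO and above it in E3-KO, and none of these differences was called (-0.21, -0.07 and 0.13; adjusted p 0.235, 0.688 and 0.457 by limma-trend). The E3-KO difference passed with quantile normalization (0.351, adjusted p 0.0469).

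**Figure D3:**
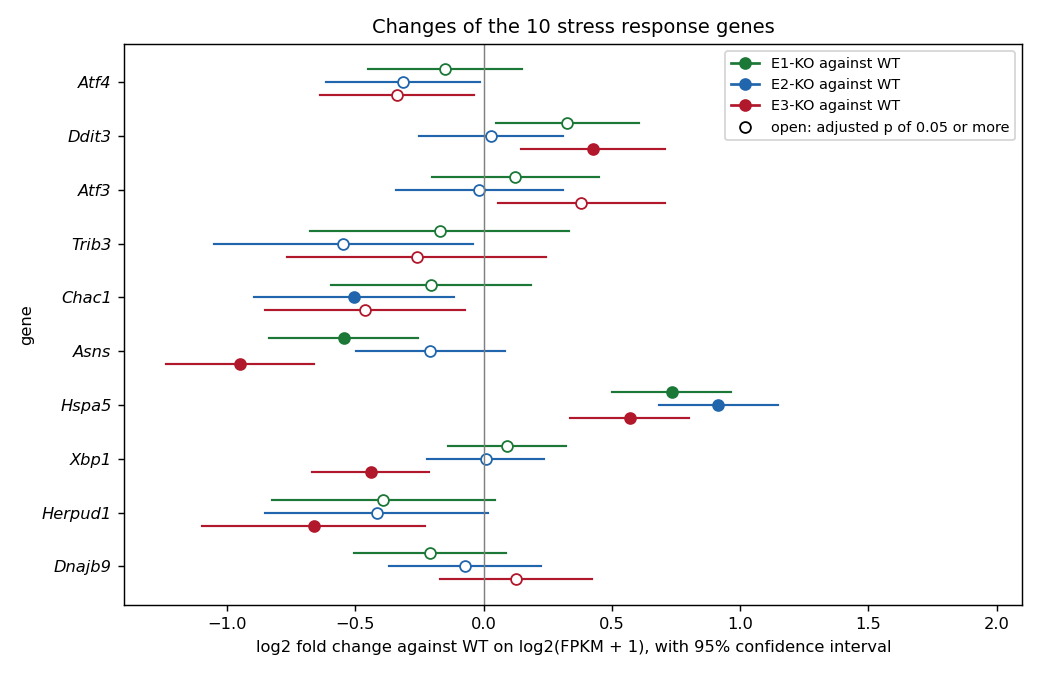
Log2 fold change on log2(FPKM + 1) of each of the 10 genes against WT with its 95% confidence interval from limma-trend; filled points passed an adjusted p of 0.05. Hspa5 is filled on the right for all 3 knockouts (0.73, 0.91 and 0.57), and Asns is filled on the left for E1-KO and E3-KO (-0.54 and -0.95).

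The counts of calls among the 10 are read against those of all tested genes. In E1-KO 2 of 10 were called, 1 higher and 1 lower, where 38% of all tested genes were called (15% higher and 23% lower). In E2-KO it was again 2, 1 higher and 1 lower, against 36.1% of all genes (14.2% higher and 22% lower). In E3-KO 5 were called, 2 higher and 3 lower, against 44.7% (13.9% higher and 30.8% lower). The samples did not overlap with WT for 7 (E1-KO), 7 (E2-KO) and 9 (E3-KO) members, against 77%, 71.8% and 74.2% of all tested genes. The median log2 fold change of the 10 was -0.16, -0.14 and -0.30, beside -0.06, -0.08 and -0.15 for all tested genes. Median-ratio scaling moved the last of these medians to 0.003. It also evened the split of all genes: in E3-KO 31.1% of the called genes were higher before and 49.9% after it, with 3 members higher and 2 lower. With quantile normalization 48.1% were higher, with 4 members higher and 3 lower. For E1-KO the share went from 39.5% to 48.7% (median-ratio), and for E2-KO from 39.2% to 50.4%, where 1 member was higher and none lower. The F test over the 4 groups called 4 members (Ddit3, Asns, Hspa5 and Xbp1) against 54.5% of all genes.

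Differences between the knockouts were tested directly. Xbp1 was lower in E3-KO than in E1-KO by a log2 difference of -0.53 (SE 0.101, limma-trend adjusted p = 0.00566) and lower than in E2-KO by -0.45 (adjusted p = 0.0195). Asns was lower in E3-KO than in E1-KO (-0.40, adjusted p = 0.0464) and E2-KO (-0.74, adjusted p = 0.00686), with the shift of chromosome 6 described above. The Asns difference from E1-KO held in 7 of 18 alternative settings. It was lost without either E1-KO sample (-0.448 and -0.361), without E3-KO replicate 2 (-0.262) and without either WT sample (-0.404 in both; adjusted p 0.0777 to 0.22 over these), and with the replicate block, the pair alone, median-ratio scaling, no trend and every gene above 0 (0.0549 to 0.0905). These were the only 2 members called in either comparison, where 25.8% (16.4% lower) and 15.6% (10.1% lower) of all tested genes were called. For Hspa5 the difference of E3-KO from E2-KO was -0.34 (95% interval -0.577 to -0.113, adjusted p 0.052) and was not called. No member was called between E2-KO and E1-KO by limma-trend, where 0.834% of all genes were, and 2 had an unadjusted p under 0.05 (Ddit3 and Asns, 0.0399 and 0.0276). The call of Xbp1 against E1-KO was lost without E1-KO replicate 1 (-0.505, adjusted p 0.0533). Against E2-KO it was lost without E2-KO replicate 2 (-0.395, adjusted p 0.0614), without E3-KO replicate 2 (-0.359, adjusted p 0.077) and with the 4 samples alone (adjusted p 0.102).

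Over the 8 samples, Pearson's r with Atf4 on the log2 scale was 0.953 for Chac1, 0.799 for Trib3, 0.787 for Herpud1, 0.557 for Asns and 0.479 for Xbp1. It was -0.226 for Atf3, -0.368 for Ddit3, -0.372 for Dnajb9 and -0.641 for Hspa5. By Pearson's r over the 8 samples, the genes outside the 10 most like Atf4 were Ranbp6 (r = 0.962), Snx19 (0.939) and Calr3 (0.939), none of which was called in any knockout. Those most like Hspa5 were Tatdn2 (r = 0.989), Cdc42 (0.987) and Psmd3 (0.981), which rose in all 3 knockouts. Tatdn2, which lies on chromosome 6, rose by 0.67, 0.84 and 0.49 on the log2 scale (limma-trend adjusted p = 0.000997, 0.000437 and 0.00332). These r values describe 4 groups of 2 samples, come from shared libraries and carry no test, and those of genes outside the 10 are the top of 11269.

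Further genes of both responses were taken from 9 lists, which held 107 tested genes. Genes of amino acid supply that Atf4 is known to drive were the longest list. Of 19 tested, 13 fell in E1-KO and none rose, 13 fell and 1 rose in E2-KO, and 15 fell and none rose in E3-KO. Among all tested genes 23%, 22% and 30.8% were lower, and 15%, 14.2% and 13.9% were higher. The median log2 fold change of the list was -0.38, -0.51 and -0.65. Cbs, which makes cystathionine from homocysteine, fell in each knockout (-1.15, -0.90 and -1.08). So did Pck2, the mitochondrial PEP carboxykinase (-1.06, -0.86 and -0.95), and Slc1a4, a transporter of neutral amino acids (-0.68, -0.96 and -0.998). Pycr1, an enzyme of proline synthesis, also fell in each (-0.57, -0.61 and -1.08). Slc7a3, a transporter of cationic amino acids, was the gene that rose in E2-KO (0.41, limma-trend adjusted p = 0.0361), a call lost in 7 of 17 alternatives, among them without either WT or E1-KO sample or E2-KO replicate 1. It fell in E3-KO (-0.57). In E3-KO 14 of the 18 genes off chromosome 6 fell. Fewer genes of the list fell in each knockout without WT replicate 2, and fewer fell in E1-KO without either E1-KO sample. In every comparison with WT, leaving out a sample of either group also lowered the number of all tested genes called. The same loss bears on the leave-out counts of the lists below.

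Of 11 tested stress and signalling targets of Atf4, 5 fell in the first knockout, E1-KO, 7 fell for E2-KO and 4 for E3-KO. In the last, 1 rose. Shares over all tested genes were 23%, 22% and 30.8% lower, and 13.9% higher in E3-KO. The medians of the list were -0.34, -0.57 and -0.30. Nupr1, a small stress-induced chromatin protein, was at 73.43 and 71.62 FPKM in WT. The knockouts had 48.42 and 45.43 (E1-KO), 34.59 and 32.24 (E2-KO) and 33.59 and 39.06 (E3-KO). It fell in each knockout (-0.62, -1.10 and -0.98). Ddit4, an inhibitor of mTORC1, fell in E1-KO (-0.66) and E2-KO (-0.96), as did Gdf15, a secreted stress cytokine (-0.73 and -0.57). Ero1l, an oxidase for disulfide bonds in the ER, fell in E2-KO (-0.63) and E3-KO (-0.68). Tnfrsf10b, a death receptor, rose in E3-KO (0.40), where the number that rose was 0 without E3-KO replicate 1 or WT replicate 1 and 2 without either E2-KO sample. Without WT replicate 1 the numbers that fell were 3, 3 and 2, without WT replicate 2 they were 2, 4 and 2, and without E1-KO replicate 2 the E1-KO number was 2.

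The cytosolic tRNA synthetases are another set of Atf4 targets. Of 12 tested, 2 rose and 1 fell in E1-KO, and 1 rose and 3 fell in both E2-KO and E3-KO, beside 15%, 14.2% and 13.9% of all tested genes higher and 23%, 22% and 30.8% lower. Aars, for alanine, rose in each knockout (0.51, 0.37 and 0.41) and Lars, for leucine, fell in each (-0.49, -0.56 and -0.93). Nars, for asparagine, rose in E1-KO (0.42), and Cars, for cysteine, fell in E2-KO (-0.49). Gars, for glycine, fell in E3-KO (-0.70) and lies on chromosome 6. The medians of the list were -0.05, -0.13 and -0.20, beside -0.06, -0.08 and -0.15 for all tested genes. These counts were small and moved with single samples: over the 17 alternatives the number that rose lay between 0 and 3 and the number that fell between 1 and 5. In E1-KO none rose without E1-KO replicate 1 or WT replicate 1 and 1 without E1-KO replicate 2 or WT replicate 2, and 2 fell without any 1 sample of E2-KO or E3-KO. In E2-KO none rose without either WT or E1-KO sample or E2-KO replicate 1, and 3 rose without E2-KO replicate 2. There 1 fell without E2-KO replicate 2 or either WT sample. In E3-KO none rose without E3-KO replicate 2 or WT replicate 1.

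Upstream, the 12 genes of eIF2 control had 4 members that rose and 2 that fell when E1-KO was set against WT. For E2-KO 4 rose and 1 fell, and for E3-KO 2 rose and 2 fell. Among all tested genes 15%, 14.2% and 13.9% were higher and 23%, 22% and 30.8% lower. In E3-KO both other scalings gave 5 that rose and 2 that fell. There 20.2% (quantile) and 20.9% (median-ratio) of all tested genes were higher, and 21.8% and 21% lower. Without either WT sample 2 rose in E1-KO and 2 in E2-KO, without E1-KO replicate 1 it was 2 in E1-KO, and without WT replicate 1 none rose in E3-KO. The number that fell in E1-KO was 1 in 8 of 17 alternatives, among them without either E1-KO or WT sample. The eIF2B subunits Eif2b2 and Eif2b4, parts of the exchange factor that phosphorylated eIF2 blocks, rose in each knockout (Eif2b2 1.06, 1.02 and 0.78; Eif2b4 0.72, 0.81 and 0.59). Another subunit, Eif2b5, fell in E1-KO (-0.36). Ppp1r15b (CReP), the standing subunit of the phosphatase that removes phosphate from eIF2, fell in each knockout (-0.73, -0.81 and -0.97). Its level was 48.00 and 51.83 FPKM in WT and between 23.72 and 30.60 in the 6 knockout samples. Eif2ak3 (PERK), the ER kinase for eIF2, fell in E3-KO (-0.70) and lies on chromosome 6.

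Of the 6 sensors and proteases of the unfolded protein response, which include Eif2ak3, 2 fell in E1-KO and 3 in E2-KO, while E3-KO had 3 that fell and 1 that rose. Among all tested genes 23%, 22% and 30.8% were lower, and 13.9% were higher in E3-KO. With quantile normalization and median-ratio scaling 21.8% and 21% of all tested genes were lower in E3-KO. In E3-KO 2 fell with quantile normalization, 1 with median-ratio scaling and 1 without WT replicate 2, and none rose without either WT or E3-KO sample or with the pair alone. In E1-KO 1 fell without E1-KO replicate 1 or WT replicate 2. Mbtps1 and Mbtps2, the proteases that cut ATF6 free, fell in each knockout (Mbtps1 -0.44, -0.39 and -0.42; Mbtps2 -0.70, -0.64 and -0.45). Ern1 (IRE1), which splices Xbp1, fell in E2-KO (-0.58), and Atf6 rose in E3-KO (0.36). Among 7 tested partners and other regulators, Nupr1 was one that fell in each knockout, as given above. Jun, a subunit of AP-1, fell in E1-KO (-0.47) and rose in E3-KO (0.59), where Jund also rose (0.44). The level of Jun was near the filter, at 1.691 and 1.299 FPKM in WT, 0.764 and 0.822 in E1-KO and 2.879 and 2.590 in E3-KO. Among all tested genes 13.9% were higher in E3-KO and 23% lower in E1-KO. Of the 7 regulators, 3 rose in E3-KO and 2 fell in E1-KO. Without any 1 sample of E1-KO, E3-KO or WT the first number was 0 or 1, and without any 1 sample of E1-KO or WT the second was 1, as with both other scalings.

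The ER chaperones and folding enzymes other than Hspa5 formed a list of their own. Of 16 tested, 2 rose and 1 fell in E1-KO, 6 rose and none fell in E2-KO, and 3 rose and 5 fell in E3-KO, with medians of -0.10, 0.16 and -0.10. Of all tested genes 15%, 14.2% and 13.9% were higher and 23%, 22% and 30.8% lower. With median-ratio scaling 18.3% of all tested genes were higher in E1-KO, and 20.9% were higher and 21% lower in E3-KO. With quantile normalization 18.9% were lower in E1-KO and 17.7% in E2-KO. Calr, a calcium-binding chaperone of the ER, was at 336.7 and 349.8 FPKM in WT and between 667.0 and 778.7 in the 6 knockout samples. It rose in each knockout (1.06, 0.99 and 1.09). Manf, a secreted factor of the ER stress response, also rose in each (0.79, 0.91 and 0.57). P4hb, a protein disulfide isomerase, fell in E1-KO (-0.39) and E3-KO (-0.65), and Hyou1, an exchange factor for BiP, fell in E3-KO (-0.48). Pdia4, which rose in E2-KO (0.43) and fell in E3-KO (-0.44), lies on chromosome 6. Of the 15 genes elsewhere, 5 rose in E2-KO, and 3 rose and 4 fell in E3-KO. The number that rose in E1-KO was 5 with median-ratio scaling, 6 with the pair alone and 4 without any 1 sample of E2-KO or E3-KO. In E2-KO it was 3 without E2-KO replicate 1 and 2 without either WT sample, and in E3-KO median-ratio scaling gave 5 that rose and 2 that fell. The number that fell in E1-KO was 4 with quantile normalization, 3 with the pair alone, 2 without any 1 sample of E2-KO or E3-KO and 0 without any 1 sample of E1-KO or WT. In E2-KO 2 fell with quantile normalization, 2 without E2-KO replicate 1 and 1 without either E3-KO sample. In E3-KO 2 fell without E3-KO replicate 2 or either WT sample.

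Of 16 genes for ER-associated degradation and translocation, 5 fell and none rose when E1 was removed. For E2-KO 3 fell and 1 rose, and for E3-KO 6 fell and 1 rose. Among all tested genes 23%, 22% and 30.8% were lower, and 15%, 14.2% and 13.9% were higher. With quantile normalization 18.9% of all tested genes were lower in E1-KO. Edem2, which trims mannose on misfolded glycoproteins, fell in each knockout (-0.77, -0.70 and -0.64). Its relative Edem1 also fell in each (-0.52, -0.42 and -1.14), and Sec61a1, the channel subunit of the translocon, fell in E1-KO (-0.33) and E3-KO (-0.95). Edem1 and Sec61a1 both lie on chromosome 6, and 4 of the 14 genes elsewhere fell in E3-KO. Os9, a lectin of the degradation complex, fell in each knockout (-0.44, -0.53 and -0.77). Sec61b rose in E2-KO (0.55), and Derl3 rose in E3-KO (0.43), where the identifier of Derl3 had 4 rows and 1 was used. The number that fell in E1-KO was 1 without E1-KO replicate 1 or WT replicate 2, 2 without E1-KO replicate 2 or WT replicate 1 and 3 with quantile normalization. In E2-KO it was 1 without WT replicate 1 and 0 without WT replicate 2, and in E3-KO 3 without WT replicate 2. The gene that rose in E2-KO was lost without E2-KO replicate 1 or either WT sample. In E3-KO none rose without E3-KO replicate 1 or any 1 sample of E1-KO or WT, and 2 rose without either E2-KO sample.

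Heat shock genes served as a comparison list for folding stress outside the ER. Most act in the cytosol, but Hspd1 and Hspe1 are chaperones of the mitochondria. Hspd1 rose in E2-KO (0.61) and E3-KO (0.70) and Hspe1 in E2-KO (0.60), and neither was called in E1-KO. Both are part of the counts and medians that follow. Of 11 tested, 4 rose with E1 removed, 7 with E2 removed and 6 with E3 removed, and none fell. The other 7, 4 and 5 did not pass. Shares over all tested genes were 15%, 14.2% and 13.9% higher, and 23%, 22% and 30.8% lower. The medians of the list were 0.42, 0.60 and 0.41. Dnaja1, an Hsp40 co-chaperone, was at 53.11 and 49.25 FPKM in WT and between 99.69 and 154.2 in the knockout samples. It rose in each knockout (1.52, 1.18 and 1.23). Hsph1, an exchange factor for Hsp70, also rose in each (0.83, 1.01 and 0.90). Without WT replicate 1 the numbers that rose were 2, 4 and 2, and without WT replicate 2 they were 2 in E1-KO and 4 in E2-KO. In E1-KO the number was also 2 without E1-KO replicate 2, and 7 with the pair alone or without either E2-KO sample.

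**Figure D4:**
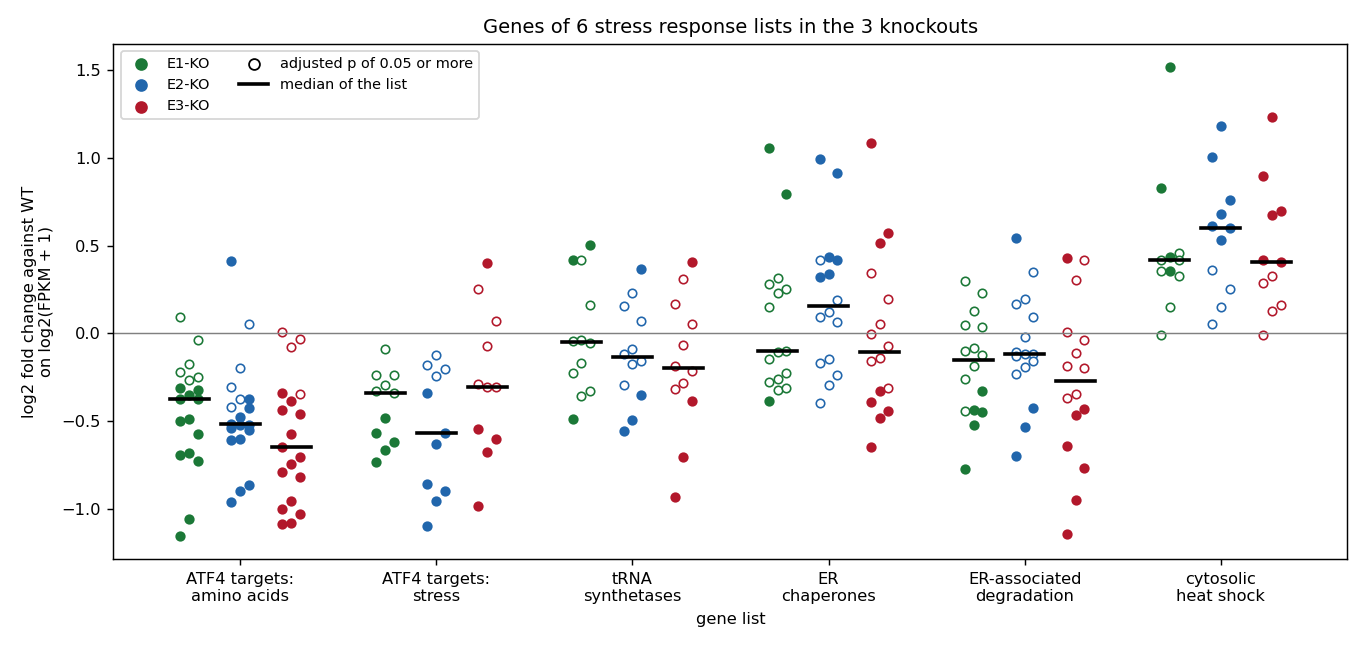
Log2 fold change against WT on log2(FPKM + 1) of the tested genes of 6 lists in the 3 knockouts, 1 point per gene, filled where the adjusted p was under 0.05; black bars are list medians. The list of amino acid targets has medians of -0.38, -0.51 and -0.65, and the heat shock list 0.42, 0.60 and 0.41. The heat shock list also holds the mitochondrial Hspd1 and Hspe1.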

How the data were processed

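Total RNA of 8 samples (4 groups of 2) was made into libraries with a total RNA kit and sequenced in pairs of 150 bases, per the labels. The submitters' processing notes name Trimmomatic 0.36, TopHat2 2.0.12, Cufflinks 2.2.1 and the build mm9, with no settings. The authors deposited 1 value per gene row, taken here as FPKM made with Cufflinks, per the submitters' processing notes. No file header states the unit, and the values are not whole. Absolute depth is unknown, so no interval covers counting error, and sample sums were 454974 to 532007.

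Each sample had 18774 rows and 17812 identifiers. For 660 with more than 1 row, the row whose neighbours in the file (10 on each side) matched the gene's place in GENCODE M21 was kept, which left out 84. Each of the 10 members had 1 row. No 75-base window of a member's transcripts was shared with another gene, except 1.81% for Ddit3 (a second gene of that name) and 2.55% for Dnajb9 (Gm6568). Symbols came from a gene name table (17262 identifiers matched).

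The 11269 genes that averaged 1 FPKM or more were fitted on log2(FPKM + 1) with limma 3.58.1 in R 4.3.3 (trend, all samples, group as the only term, 4 residual degrees of freedom), two-sided. The genes named beyond the 10 were up to 2 that rose and 2 that fell per list and knockout, by size of change. Hspd1, Hspe1 and Pdia4 were named apart from this rule, for where they lie. The members, lists and motifs were chosen with earlier results of these data known. Of the listed genes, Cebpb, Batf, Slc7a11, Fgf21 and Hspa1a were under the filter, and Cebpd, Slc7a5 and Map1lc3b were not used here. The fitting code was tested on simulated data. Alternatives were the replicate block, the pair of groups alone, quantile and median-ratio scaling, no trend, other filters (every gene above 0, a mean of 5 FPKM), a pseudocount of 0.1, summed repeated rows and leaving out each sample. The counts of all 9 lists were put through them as alternatives added after the data had been seen. Figures were drawn with matplotlib 3.10.9.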

Additional observations from a re-analysis of the deposited data

Results flagged for a closer look

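The effects of the knockouts differed from each other for 2 members by the direct contrast between knockouts in limma-trend. Xbp1 was lower in E3-KO than in E1-KO (-0.532) and E2-KO (-0.4487), and its 2 E3-KO samples lay below the other 6 samples. Asns was lower in E3-KO than in E1-KO (-0.4042) and E2-KO (-0.7405), and the genes of its chromosome had medians of -0.587 and -0.582 in the same contrasts. With the genes of chromosome 6 centred on their median, the differences of Asns were 0.168 and -0.193 (adjusted p 0.344 and 0.318). What moves with the difference of Xbp1, which lies on chromosome 11, was not tested.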

How the results depend on the processing

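Hspa5 kept its direction and call against WT in each of the 17 alternatives for all 3 knockouts. Atf3 was under the filter of a mean of 5 FPKM and had 16. The number of members called moved by more than 1.5 times in several settings. With the samples of the 2 groups alone it was 4 in E1-KO against WT, 1 in E3-KO against E1-KO and 1 in E3-KO against E2-KO. The numbers of all tested genes called moved too, from 4284, 2911 and 1754 to 5587, 2509 and 708. In E2-KO against WT 1 member was called with median-ratio scaling and 1 with every gene above 0. There 3970 and 3748 of all genes were called, against 4071. In E3-KO against E1-KO 1 member was called with limma without a trend and 1 with every gene above 0. There 2792 and 2907 of all genes were called, against 2911. Samples with the same replicate number did not deviate together (correlations of -0.042 to 0.089 over 6 pairs of groups). With the replicate block the number of members called was 1 in E3-KO against E1-KO, where the main value was 2. There 2688 of all tested genes were called. The block moved no other number of members by over 1.5 times. Leaving out 1 sample, where the lone sample is assumed to vary like the other groups, gave 1 to 4 members in E1-KO, 1 to 4 in E2-KO and 2 to 7 in E3-KO against WT, 0 to 3 in E3-KO against E1-KO and 1 to 3 in E3-KO against E2-KO.

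Changes that were not called turned sign in a few settings, and the cause was not tested. Atf3 in E2-KO was 0.077 with quantile normalization and 0.038 with median-ratio scaling, and Dnajb9 in E2-KO was 0.073 and 0.002. Leaving out 1 sample gave -0.065 to 0.125 for Ddit3 in E2-KO, -0.468 to 0.124 for Trib3 in E1-KO, -0.564 to 0.042 for Trib3 in E3-KO, -0.112 to 0.08 for Atf3 in E2-KO and -0.045 to 0.061 for Xbp1 in E2-KO. The one called difference that turned was Asns in E3-KO against E1-KO, at 0.168 with chromosome 6 centred. Of 578 alternative values of single members, 501 kept direction and call. Most of the 578 belong to changes not called in the main fit, which keep their call by staying uncalled. Among called changes, Asns in E3-KO against E1-KO kept 7 of 18 and Chac1 in E2-KO against WT kept 8 of 17.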
